A study of Mus musculus with 24 samples.

Results

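Homeostatic microglial genes are the receptors, surface proteins, secreted protein and transcription factor by which resting microglia of the mouse brain are commonly recognised. The 10 genes described here were P2ry12, P2ry13, Gpr34, Cx3cr1, Csf1r, Tmem119, Siglech, Fcrls, Olfml3 and Sall1, found by their symbols among the 43346 genes of the count table. All 10 passed the filter on low counts, which left 21891 genes in the tests. The genes were followed in whole cortical RNA of 24 mice, 1 library per mouse, in 4 groups of 6. Groups were control mice without a stimulus (55 to 57 days old), control mice given lipopolysaccharide (LPS, 54 to 56 days), mice labelled Abca7 without a stimulus (55 to 58 days) and mice labelled Abca7 given LPS (54 to 56 days). LPS, a glycolipid of the envelope of Gram-negative bacteria that activates innate immune cells through TLR4, was injected. The series text describes the labelled mice as heterozygous for Abca7, a lipid transporter of the ABC family. The sources used here do not give the strain, sex, allele, LPS dose, route or delay to collection, nor what the unstimulated mice received.

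Microglia are the resident macrophages of the brain. Signals from their surroundings, TGF-beta and the CSF1 receptor ligands CSF1 and IL-34 among them, keep them in a surveying state, and the factors PU.1 (Spi1) and SALL1 act on the genes of that state. In this state they carry receptors for nucleotides, lysophospholipids and the neuronal chemokine CX3CL1. Strong activation, as by LPS, is known to lower many of these genes in isolated microglia.

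On mm10, as the deposited table gives it, chromosome 3 holds P2ry13 (chr3:59207896-59210882), P2ry12 (chr3:59216271-59262831), Fcrls (chr3:87250758-87263738) and Olfml3 (chr3:103733700-103738001), all on the minus strand. Tmem119 (chr5:113793729-113800516), Sall1 (chr8:89027248-89044162) and Cx3cr1 (chr9:119901616-120068283) are on the minus strand too. Siglech (chr7:55768178-55778925), Gpr34 (chrX:13632089-13640858) and Csf1r are on the plus strand. All 10 are protein-coding genes.

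Gene starts of members from RefSeq (build GRCm38.p6) are shown because the members did not all move the same way under LPS. A window held 250 bases before and 50 bases after a start site, and 9 windows of 7 of the 10 genes were searched. Tmem119 and Gpr34 had no window, and the start of Csf1r was not searched. The windows printed are those of P2ry12 and Cx3cr1, which fell most among the genes with a window, and of the 3 genes with a PU box, the core of PU.1 sites. The motif searched was GAGGAA on either strand (TTCCTC when it lies on the opposite one), and capitals mark it in the 5′ to 3′ sequence of each gene's own strand. Other forms of PU.1 site, shorter ones among them, are not reported here.
P2ry12 (chr3:59262936-59263235, minus strand): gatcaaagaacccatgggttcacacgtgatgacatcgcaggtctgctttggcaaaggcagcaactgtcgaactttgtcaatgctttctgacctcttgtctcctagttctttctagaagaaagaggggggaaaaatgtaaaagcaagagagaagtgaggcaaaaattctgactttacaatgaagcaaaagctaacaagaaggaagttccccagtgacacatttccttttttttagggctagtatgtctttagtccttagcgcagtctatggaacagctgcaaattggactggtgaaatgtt
Cx3cr1 (chr9:120068247-120068546, minus strand): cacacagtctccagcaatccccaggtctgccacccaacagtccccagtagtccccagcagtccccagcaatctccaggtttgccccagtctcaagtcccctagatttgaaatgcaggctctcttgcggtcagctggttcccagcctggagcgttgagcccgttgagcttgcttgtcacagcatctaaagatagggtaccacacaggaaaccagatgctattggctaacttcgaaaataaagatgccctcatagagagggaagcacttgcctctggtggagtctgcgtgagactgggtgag
P2ry13 (chr3:59210833-59211132, minus strand): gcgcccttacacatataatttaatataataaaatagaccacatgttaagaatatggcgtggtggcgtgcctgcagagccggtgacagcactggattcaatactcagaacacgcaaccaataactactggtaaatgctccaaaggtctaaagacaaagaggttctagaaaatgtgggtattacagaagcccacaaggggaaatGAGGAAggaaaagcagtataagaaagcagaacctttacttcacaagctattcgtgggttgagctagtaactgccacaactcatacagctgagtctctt
Siglech (chr7:55767934-55768233, plus strand): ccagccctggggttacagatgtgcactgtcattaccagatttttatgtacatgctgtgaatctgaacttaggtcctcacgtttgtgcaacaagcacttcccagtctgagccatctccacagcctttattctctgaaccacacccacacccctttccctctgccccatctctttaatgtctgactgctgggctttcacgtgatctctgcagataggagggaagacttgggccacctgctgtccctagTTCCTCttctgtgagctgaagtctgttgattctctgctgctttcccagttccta
Fcrls (chr3:87263475-87263774, minus strand): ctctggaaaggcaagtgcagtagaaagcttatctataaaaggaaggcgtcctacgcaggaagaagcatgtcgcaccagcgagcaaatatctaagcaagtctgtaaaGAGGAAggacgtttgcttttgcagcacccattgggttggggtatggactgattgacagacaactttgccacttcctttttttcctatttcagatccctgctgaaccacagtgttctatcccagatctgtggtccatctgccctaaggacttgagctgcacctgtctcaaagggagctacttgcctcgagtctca
The PU box began 48 bases before the start site in P2ry13, 144 before it in Fcrls and 4 before it, on the opposite strand, in Siglech. It was present in 3 of the 9 member windows searched and in 28.3% of all 32851 mouse windows of the same length. P2ry13 and Siglech, which fell under LPS, and Fcrls, which rose, all held GAGGAA. P2ry12, Cx3cr1, Olfml3 and Sall1, which fell too, did not hold these 6 letters in the windows searched.

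Abca7 RNA was not lower in the mice that carry its label: it held 26.6 to 32.2 CPM (read counts scaled to a common library total with TMM factors, median 27.995) in control and 29.9 to 34.8 (median 31.3) in labelled mice without LPS, and 20.6 to 27.1 (median 25.6) against 25.2 to 31.5 (median 29.98) under LPS. The log2 differences were 0.17 ± 0.07 (adjusted p = 0.606) and 0.26 ± 0.07 (adjusted p = 0.267), so these counts do not check the label, which is used here as given. Libraries held 48149131 to 75741388 counts each. No pair of libraries of a group agreed within sampling noise. Tissue markers matched brain tissue, with neuronal markers at a summed 7061 to 8166 CPM. Choroid plexus markers, which can enter a cortical dissection, were uneven: their summed CPM was 14.7 to 303.6 (median 26.3) in unstimulated controls against 193 to 554 (median 297) in control LPS libraries. They ranged from 63.6 to 505 (median 445) in the unstimulated and from 37.2 to 440 (median 308) in the LPS libraries labelled Abca7. With the level of the choroid plexus gene Ttr in the model, all 10 microglial genes were still called in both LPS comparisons. P2ry13 in control mice then had an adjusted p of 0.0449. In control mice the choroid plexus markers rose together with LPS, so this model cannot fully separate their level from the LPS effect there.

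Without LPS, the 10 genes differed in level over a wide range. Per kilobase of the gene length given in the deposited table, Csf1r was highest in unstimulated controls at 16.7 ± 0.643 CPM per kb (SD, n = 6). P2ry12 (10.4 ± 1.09) and Cx3cr1 (8.90 ± 0.660) came next and overlapped between libraries. Fcrls (7.42 ± 0.337) and Tmem119 (7.38 ± 0.422) overlapped with each other and lay below Cx3cr1. Sall1, Gpr34 and Siglech followed at 4.20 ± 1.08, 3.72 ± 0.417 and 3.42 ± 0.241, each overlapping its neighbour. Olfml3 (2.93 ± 0.0922) and P2ry13 (2.87 ± 0.273) were lowest and overlapped. The mice labelled Abca7 kept Csf1r, P2ry12 and Cx3cr1 at the top and P2ry13 at the bottom.

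LPS lowered 9 of the 10 genes in control mice and raised Fcrls, and the same 9 fell and Fcrls rose in mice labelled Abca7. The fall was deepest for Gpr34, Cx3cr1, P2ry12 and Tmem119 and shallow for Csf1r. All 10 were called at an adjusted p under 0.05 in control mice, where 17.3% of all genes tested were called, 7.92% lower and 9.39% higher. All 10 were called in mice labelled Abca7 too, against a background of 11.8%, 5.18% lower and 6.65% higher. The median log2 fold change of the 10 was -0.66 in control mice and -0.71 in labelled mice, where the median of all genes tested was 0.0051 and 0.0052. A fall of more than 1 on the log2 scale was seen for 4 of the 10 in control mice (0.703% of all genes) and for 3 in labelled mice (0.566%). Every LPS library lay below every unstimulated one for 8 of the 10 in control mice (3.69% of all genes) and for 8 in labelled mice (2.24%), and above it for Fcrls in control mice (5.38%) but for none in labelled mice (3.49%). These tissue-wide values cannot tell fewer microglia from less RNA per microglial cell.

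**Figure D1:**
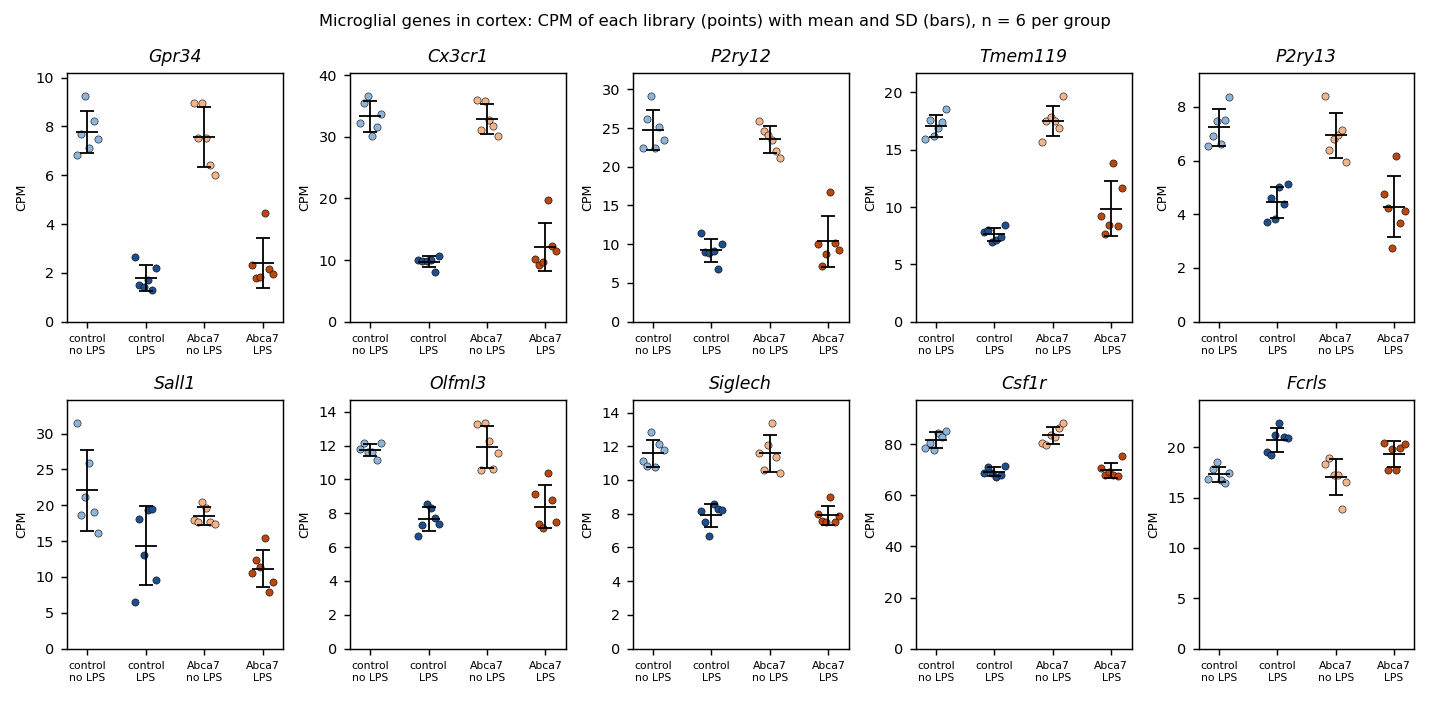
CPM (TMM scaled) of each homeostatic microglial gene in every library. Points are the 6 libraries of a group, and bars show mean and SD; each vertical axis starts at 0. The 2 LPS groups lie below the unstimulated groups for 9 genes and above them for Fcrls, with overlap for Sall1, P2ry13 and Fcrls in single comparisons.

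Among the purinergic receptors, P2ry12, the ADP receptor that guides microglial processes toward injury, ranged from 22.5 to 29.2 CPM (median 24.3) in unstimulated controls and from 6.79 to 11.4 (median 9.07) under LPS. In mice labelled Abca7 it ranged from 21.1 to 25.9 (median 23.8) without LPS and from 7.23 to 16.8 (median 9.60) with it. Every LPS library lay below every unstimulated library of its genotype label. The log2 fold change was -1.43 ± 0.13 (SE, adjusted p = 3.06e-09) in control mice and -1.19 ± 0.13 (adjusted p = 1.24e-07) in labelled mice, which left 37.1% and 43.9% of the unstimulated level. P2ry13, a related ADP receptor, went from 6.54 to 8.38 CPM (median 7.20) down to 3.70 to 5.11 (median 4.49) in control mice. In labelled mice it went from 5.95 to 8.41 (median 6.90) to 2.76 to 6.16 (median 4.18). The control groups did not overlap, and in labelled mice a single LPS library, replicate 4, reached into the unstimulated range. Both genes lie inside Med12l, a gene on the other strand that changed by 0.04 ± 0.04 (adjusted p = 0.570) in control mice. P2ry13 fell by 0.71 on the log2 scale (adjusted p = 0.000126) and 0.69 (adjusted p = 0.000245).

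Gpr34, a receptor for lysophosphatidylserine, had the deepest fall of the 10. Control libraries held 6.82 to 9.25 CPM (median 7.60) without LPS and 1.30 to 2.65 (median 1.60) with it, the latter from 84 to 143 counts per library. In labelled mice the ranges were 5.999 to 8.97 (median 7.53) and 1.77 to 4.45 (median 2.06). The groups were apart in both, and the log2 fold changes were -2.12 ± 0.19 (adjusted p = 1.09e-09) and -1.65 ± 0.18 (adjusted p = 1.09e-07). Only 20 of the 21891 genes ranked at or below Gpr34 in control mice, itself included. Gpr34 lies inside Cask, a neuronal scaffold gene on the other strand. Cask changed by -0.02 ± 0.04 (adjusted p = 0.774) in control mice.

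Cx3cr1, the receptor for the neuronal chemokine fractalkine, held 30.1 to 36.7 CPM (median 32.9) in unstimulated controls and 8.05 to 10.7 (median 9.94) under LPS. In mice labelled Abca7 it held 30.2 to 36.0 (median 32.2) and 9.23 to 19.7 (median 10.8). All LPS libraries were low, and the groups were far apart. The log2 fold changes were -1.77 ± 0.12 (adjusted p = 7.08e-12) and -1.45 ± 0.12 (adjusted p = 4.71e-10), which left 29.2% and 36.6% of the level. Of the exon bases of Cx3cr1, 1.7% are shared with Gm33858, an antisense gene that is not counted in the table. Csrnp1, a gene on the same strand, overlaps the annotated span of Cx3cr1 but shares no exon base with it, and in control mice it rose by 0.82 ± 0.11 (adjusted p = 1.76e-06). Csf1r, the tyrosine kinase receptor on which microglial survival depends, fell by little: it held 77.7 to 85.1 CPM (median 81.8) against 67.3 to 71.5 (median 68.8) in control mice. In labelled mice it held 79.7 to 88.5 (median 83.4) against 67.5 to 75.4 (median 68.7). These narrow groups did not overlap either, and the fold changes of -0.24 ± 0.03 (adjusted p = 4.05e-06) and -0.26 ± 0.03 (adjusted p = 1.16e-06) left 84.9% and 83.5% of the level. Hmgxb3 shares 15.1% of the exon bases of Csf1r on the other strand, and reads from there can be divided between the genes only if the counting used strand, which the sources used here do not say. Hmgxb3 itself changed by -0.06 ± 0.05 (adjusted p = 0.480) in control mice.

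Of the surface proteins, Tmem119, a transmembrane protein used as a microglial marker, fell from 15.9 to 18.6 CPM (median 17.1) to 6.95 to 8.45 (median 7.62) in control mice. It fell from 15.7 to 19.7 (median 17.5) to 7.68 to 13.8 (median 8.81) in labelled mice. Neither pair of groups overlapped, and the log2 fold changes were -1.17 ± 0.10 (adjusted p = 6.18e-10) and -0.83 ± 0.10 (adjusted p = 3.24e-07). Siglech, a sialic acid-binding lectin that signals through an adaptor, held 10.8 to 12.8 CPM (median 11.5) in unstimulated controls and 6.69 to 8.57 (median 8.19) under LPS. In labelled mice it held 10.4 to 13.4 (median 11.5) and 7.48 to 9.004 (median 7.72). Its groups were apart in both, with log2 fold changes of -0.55 ± 0.07 (adjusted p = 5.46e-07) and -0.55 ± 0.07 (adjusted p = 8.54e-07).

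Fcrls, an Fc receptor-like protein of microglia, was the exception. Control libraries held 16.4 to 18.5 CPM (median 17.2) without LPS and 19.2 to 22.5 (median 21.0) with it, with no overlap. In mice labelled Abca7 the ranges were 13.9 to 19.0 (median 17.3) and 17.7 to 20.5 (median 19.9), which overlap. The rise was 0.26 ± 0.06 on the log2 scale (adjusted p = 0.0019) in control mice and 0.18 ± 0.06 (adjusted p = 0.0406) in labelled mice. The call in labelled mice was lost without any of 8 single libraries (LPS replicate 1, 3, 5 or 6, or unstimulated replicate 3, 4, 5 or 6), with adjusted p between 0.0530 and 0.110.

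Olfml3, a secreted olfactomedin-like glycoprotein, fell from 11.2 to 12.1 CPM (median 11.7) to 6.68 to 8.53 (median 7.56) in control mice. In labelled mice it fell from 10.5 to 13.4 (median 11.9) to 7.15 to 10.4 (median 8.14). The groups were apart in both, narrowly so in labelled mice. The log2 fold changes were -0.61 ± 0.08 (adjusted p = 1.78e-06) and -0.51 ± 0.08 (adjusted p = 4.42e-05) in control and labelled mice. Sall1, the zinc-finger transcription factor that holds microglia in their identity, varied more between control libraries than the other 9 genes did without LPS, with a standard deviation of 0.35 in log2 CPM, and also under LPS, at 0.65. It held 16.2 to 31.5 CPM (median 20.05) in unstimulated controls and 6.48 to 19.5 (median 15.5) in control LPS libraries, which overlap. In labelled mice the groups were apart, at 17.4 to 20.4 (median 17.9) and 7.87 to 15.4 (median 10.997). The log2 fold changes were -0.62 ± 0.20 (adjusted p = 0.0295) and -0.73 ± 0.20 (adjusted p = 0.0153).

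The Sall1 call in control mice rested on single libraries, and its estimate was unlike in the small age groups. The LPS difference in mean log2 CPM was -1.15 among the 55-day-old control mice (2 against 2). Among the 56-day-old ones (3 against 3) it was -0.29, and the groups overlapped. Labelled mice had -1.08 at 55 days and -0.84 at 56 days, and a difference of the LPS effect between ages was not tested. In control mice the adjusted p was 0.0579 to 0.0829 without LPS replicate 1, 3 or 6, or unstimulated replicate 1 or 4. With Ttr in the model the log2 fold change in control mice was -0.96 (adjusted p = 0.0184). With age as a factor the log2 fold change was -0.70 (adjusted p = 0.00263), and the call held. At 55 and at 56 days and under both genotype labels, the mean of 9 of the 10 genes was lower and that of Fcrls higher under LPS, though only 1 unstimulated labelled mouse was 56 days old.

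**Figure D2:**
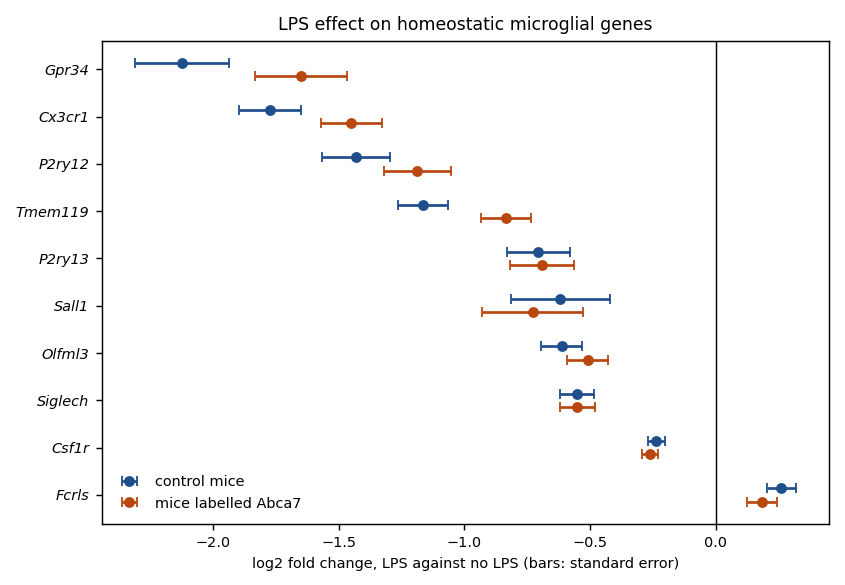
Log2 fold change of LPS against no LPS (horizontal axis) for the 10 genes, in control mice (blue) and mice labelled Abca7 (orange), with bars of 1 standard error. The values run from -2.12 for Gpr34 to 0.26 for Fcrls in control mice, and from -1.65 to 0.18 in labelled mice.

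The order of the levels shifted under LPS. Csf1r stayed highest per kilobase at 14.2 ± 0.349 CPM per kb in control LPS libraries, and Fcrls moved up to second at 8.89 ± 0.509, apart from its neighbours. P2ry12 (3.87 ± 0.639), Tmem119 (3.30 ± 0.246), Sall1 (2.73 ± 1.05) and Cx3cr1 (2.60 ± 0.239) followed with overlapping ranges. Gpr34 was lowest at 0.858 ± 0.250, below P2ry13 (1.76 ± 0.233) and apart from it.

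Other genes of microglia and myeloid cells moved the other way in part, and they give a second scale for the 10. The list of 18 genes shared by microglia and other myeloid cells had 8 higher and 2 lower in control mice, and its summed level rose from 164 ± 4.72 to 203 ± 10.5 CPM. In labelled mice the sum was 162 ± 6.43 without and 196 ± 12.1 with LPS, while the summed level of the 10 genes was 234 and 153 in control mice and 231 and 156 in labelled mice. Among the highest of the list in control mice were the Fc receptor Fcgr3 (1.54 ± 0.09) and the tetraspanin Cd53 (0.88 ± 0.09), and the lowest were Aif1 (-0.39 ± 0.10), Cd33 (-0.30 ± 0.12, adjusted p = 0.0807) and Laptm5 (-0.23 ± 0.05). Against the summed counts of this list in the same library, the log2 ratio of Gpr34 differed by -2.46 in control mice, that of Cx3cr1 by -2.08, that of P2ry12 by -1.75 and that of Csf1r by -0.54. The Fcrls ratio differed by -0.05 and -0.09, and its groups overlapped. Set against a list of 20 other homeostatic genes instead, Fcrls differed by 0.16 and 0.17, again with overlap. The other 9 genes differed by -2.25 to -0.33 in control mice and by -1.73 to -0.28 in labelled mice, with overlap for Csf1r in both and for Sall1 in control mice. These ratios are descriptions, since the reference lists move under LPS too. The list of 20 summed to 1005 ± 73.5 CPM in unstimulated controls, and in whole cortex other cells can add to it. Ratios to that list are thus not a scale within microglia.

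Markers of other cell types moved with LPS as well. Of 7 monocyte markers, 5 rose in control mice and 3 in labelled mice. In control mice Ms4a4c (4.03 ± 0.59) and Plac8 (2.94 ± 0.62) were among them, while Ccr2 differed by 0.24 ± 0.36 (adjusted p = 0.713). The summed level of the 7 genes was 30.0 to 32.0 CPM without and 33.0 to 39.3 with LPS in control mice, and 29.8 to 33.1 against 31.1 to 38.5 in labelled mice. The sum follows the genes of high level and is no measure of monocyte content. The median log2 fold change of the list was 1.88 in control mice and 1.26 in labelled mice. Of 8 neutrophil markers 3 were tested, and S100a8 (2.19 ± 0.43) and S100a9 (2.59 ± 0.41) rose. Their list summed to 0.296 to 0.727 CPM without and 0.985 to 2.65 with LPS in control mice, and to 0.296 to 0.766 and 0.785 to 1.69 in labelled mice, with Ly6g at 0 in both control groups. Of 7 border macrophage markers, 3 fell in control mice: F13a1 (-0.97 ± 0.21), Cbr2 (-0.79 ± 0.24) and Cd163 (-0.77 ± 0.12). In labelled mice 2 of the 7 fell. That list summed to 13.02 to 17.9 CPM without and 8.88 to 14.01 with LPS in control mice, and to 10.9 to 15.8 and 6.46 to 13.97 in labelled mice. Of 6 endothelial markers, 4 fell and 1 rose under both labels, with log2 fold changes from -1.86 (Tek) to 1.41 in control mice. Their summed level was 138 to 145 CPM without and 120 to 132 with LPS in control mice, and 131 to 156 against 116 to 123 in labelled mice. All 6 cortical projection neuron markers had negative values, of which 3 were called in control mice and 1 in labelled mice. Of 7 astrocyte markers, 4 rose in control mice and 1 in labelled mice, and of 6 oligodendrocyte markers 1 rose in control mice and 0 in labelled mice. Among 8 general neuron markers and the 2 lymphocyte markers that could be tested, edgeR called 0 in either comparison, with 3 and 1 below an unadjusted p of 0.05 in control mice and 1 and 1 in labelled mice. The part of these cells in the fall of the 10 genes was not tested.

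Of the 20 other homeostatic genes, 8 fell and 1 rose in control mice. The lowest were the fructose transporter Slc2a5 (-1.16 ± 0.15), the organic anion transporter Slco2b1 (-0.85 ± 0.09) and the prostaglandin D synthase Hpgds (-0.75 ± 0.11). Bin2 (0.38 ± 0.10) rose, and Sparc (0.50 ± 0.21, adjusted p = 0.102) and Ecscr (0.32 ± 0.14, adjusted p = 0.115) were positive without passing the test. The median of the list was -0.09 in control mice, against -0.66 for the 10 genes.

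The ligands of the receptors moved in both directions. Csf1, a ligand of the CSF1 receptor, rose by 1.29 ± 0.11 on the log2 scale (adjusted p = 5.03e-10) in control mice, while Il34, its other ligand, fell by 0.26 (adjusted p = 0.00259). Cx3cl1, which encodes fractalkine, fell by 0.19 (adjusted p = 0.00481). Tgfb1 rose by 0.45 ± 0.13 (adjusted p = 0.0174), and Tgfb2 (0.04 ± 0.12) and Tgfb3 (0.13 ± 0.08) were not called. Csf1 (1.06 ± 0.11) and Cx3cl1 (-0.15 ± 0.05) were called in labelled mice too, and Il34 and Tgfb1 were not (adjusted p = 0.224 and 0.240).

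Of 8 genes of TGF-beta signalling, the pathway that maintains the homeostatic programme, 2 rose and 3 fell in control mice. Nrros, the microglial anchor of latent TGF-beta, rose by 0.99 ± 0.13, and the receptor gene Tgfbr2 by 0.40 ± 0.06. The other receptor gene, Tgfbr1, fell by 0.72 (adjusted p = 2.60e-07), and the signal transducers Smad4 and Smad2 fell by 0.15 and 0.13. Smad7 (-0.24 ± 0.09), Itgb8 (0.07 ± 0.06) and Smad3 (0.04 ± 0.07) were not called. In labelled mice Nrros and Tgfbr2 rose and Tgfbr1 fell, and Smad4 and Smad2 did not pass the test.

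Among 7 transcription factors of microglial identity, Runx1 rose by 2.96 ± 0.14 (adjusted p = 2.73e-15) and Spi1, which encodes PU.1, by 0.63 ± 0.13 (adjusted p = 0.000745). Ikzf1 fell by 0.56 (adjusted p = 0.00393). Irf8 (0.31 ± 0.13), Mef2a (0.03 ± 0.03) and Mef2c (-0.14 ± 0.09) were not called. These are values of whole cortical RNA, where the 7 genes summed to 696 ± 62.6 CPM in unstimulated controls. They do not give the level of these factors in microglia alone. Runx1 and Spi1 rose and Ikzf1 fell in labelled mice as well. Sall1 fell and Spi1 rose in both LPS comparisons.

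Other purinergic genes moved in both directions, 3 of 8 higher and 2 lower in control mice and 3 higher and 1 lower in labelled mice. In control mice the UDP receptor P2ry6 (1.42 ± 0.16), the adenosine receptor Adora3 (1.40 ± 0.25) and the AMP-cleaving enzyme Nt5e (0.89 ± 0.09) rose. P2rx7, an ATP-gated channel (-0.37 ± 0.08), and the adenosine receptor Adora2a (-0.28 ± 0.08) fell. P2ry14 (-0.22 ± 0.13), P2rx4 (-0.05 ± 0.06) and the ATP-cleaving enzyme Entpd1 (0.07 ± 0.06) were not called. In labelled mice P2ry6, Adora3 and Nt5e rose, and P2ry14 was called lower (-0.39 ± 0.13, adjusted p = 0.0499).

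**Figure D3:**
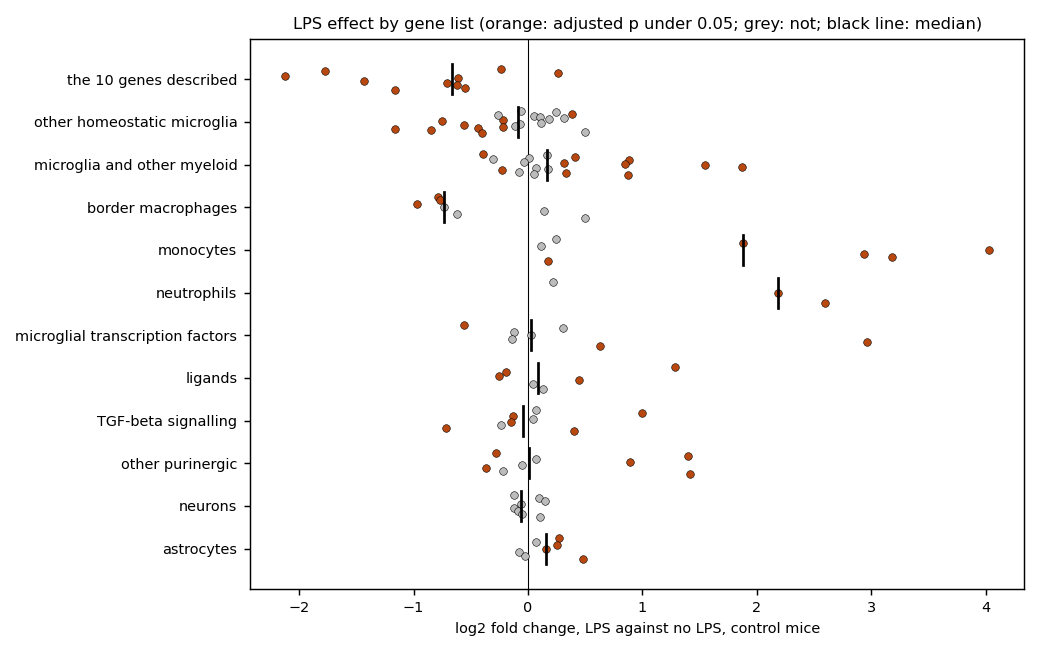
Log2 fold change of LPS against no LPS in control mice (horizontal axis) for each tested gene of 12 gene lists. Each point is 1 gene, orange where its adjusted p is under 0.05 and grey otherwise, and a black line marks the list's median. The 10 genes have a median of -0.66, the other homeostatic genes -0.09 and the shared myeloid genes 0.17. Lists were chosen with earlier results of these data known, and other cortical cells can add to their genes.

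Genotype made no detectable difference to the 10 genes without LPS. With edgeR 0 of 10 were called, where 7 genes in all (0.032%) were, 0 of 10 had an unadjusted p under 0.05, against 6.51% of all genes, and DESeq2 called 0 of 10. The log2 differences between labelled and control mice ran from -0.26 for Sall1 (95% interval -0.67 to 0.15) to 0.04 for Tmem119 (-0.16 to 0.24). The interval was narrowest for Csf1r, at -0.03 to 0.11, and for Gpr34 it was -0.40 to 0.32.

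Under LPS, 0 of the 10 were called between genotype labels, where edgeR called 0% of all genes, and DESeq2 called 0 of the 10. At an unadjusted p under 0.05, where 7.99% of all genes passed, Tmem119 (0.37 ± 0.10, adjusted p = 0.295), Gpr34 (0.43 ± 0.20, adjusted p = 0.595) and Cx3cr1 (0.31 ± 0.12, adjusted p = 0.519) were higher in labelled mice. The interaction, the difference between the LPS effects under the 2 labels, was likewise called for 0 of the 10 by edgeR and by DESeq2. Its values were 0.47 for Gpr34 (95% interval -0.07 to 1.01), 0.33 for Tmem119 (0.04 to 0.62), 0.32 for Cx3cr1 (-0.03 to 0.68) and 0.24 for P2ry12 (-0.14 to 0.63). edgeR called the interaction for 0% of all genes, and at an unadjusted p under 0.05, which 3.4% of all genes passed, it picked Tmem119 alone (adjusted p = 0.999953).

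These positive values were smaller without a single library, replicate 4 of the LPS group labelled Abca7. It held the highest level of its group for 8 of the 10 genes, the lowest for Fcrls and a middle one for Csf1r. Its Gpr34 was 4.45 CPM against 1.77 to 2.33 in the other 5, its Cx3cr1 19.7 against 9.23 to 12.3, and its P2ry12 16.8 against 7.23 to 10.2. Without it the interaction was 0.22 for Gpr34, 0.21 for Tmem119, 0.13 for Cx3cr1 and 0.06 for P2ry12, and the median over the 10 genes was 0.01 in place of 0.06. The genotype differences under LPS without it were 0.18 for Gpr34 (adjusted p = 0.781), 0.25 for Tmem119 (adjusted p = 0.310) and 0.12 for Cx3cr1 (adjusted p = 0.684). For Tmem119 the adjusted p was thus close to the 0.295 of all libraries. Over all 22 alternatives, DESeq2 among them, this Tmem119 difference ran from 0.25 to 0.43, with adjusted p from 0.0618 to 0.793. Other settings moved the interaction too: over 33 alternatives it ran from 0.22 to 0.61 for Gpr34 and from 0.21 to 0.39 for Tmem119. Without replicate 4 the LPS effect in labelled mice was -1.91 for Gpr34, -1.64 for Cx3cr1 and -1.38 for P2ry12, and all 10 genes were still called. The same library held 760 CPM of S100b, a calcium-binding protein gene of glia, against 71.4 to 76.2 in the other 5, and its part in the result was not tested.

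**Figure D4:**
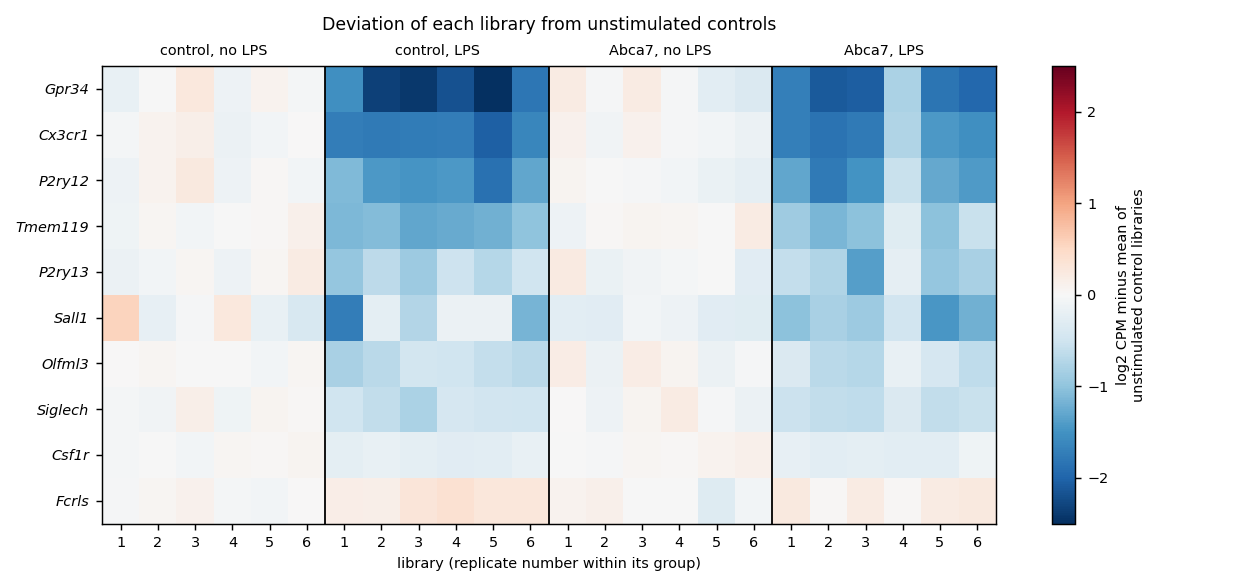
Log2 CPM of each gene in each library minus the mean of the 6 unstimulated control libraries (colour scale; blue lower, red higher), with libraries in columns by group and replicate number. Replicate 4 of the labelled LPS group is paler than its neighbours for 8 genes, and Sall1 differs widely among control LPS libraries.

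Within groups, the 10 genes varied together only in part. After removal of group means, the 45 pairs had Pearson correlations from -0.32 to 0.92 with a median of 0.24 over 24 libraries, which share depth and tissue composition. The closest pairs were P2ry12 with Gpr34 (0.92), P2ry12 with Cx3cr1 (0.90) and Cx3cr1 with Gpr34 (0.82). Against the mean of the other 9 genes, Cx3cr1 had 0.80 and P2ry13 0.69, while over all 24 libraries Sall1 (-0.02), Fcrls (-0.07) and Csf1r (-0.20) were near or below 0. Without replicate 4 of the labelled LPS group (23 libraries) the median was 0.10 and P2ry12 with Gpr34 was 0.85. The next closest pairs were Tmem119 with Csf1r, at 0.78 in place of 0.45, and P2ry12 with Cx3cr1, at 0.78 in place of 0.90. Against the rest, Cx3cr1 was then at 0.57, P2ry13 at 0.45, Tmem119 at 0.22 in place of 0.62, Fcrls at 0.33, Csf1r at -0.09 and Sall1 at -0.41. The order of the genes in this measure thus rested in part on that library.

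The genes most like the 10 within groups, among 14931 genes of at least moderate level, were Slco2b1 (Pearson r = 0.84), Dock8 (0.80), Tek (0.78), Podxl (0.76), Pcdh8 (0.76), S100b (0.76), Mmrn2 (0.76) and Slc40a1 (0.75). Without replicate 4 of the labelled LPS group, Slco2b1 kept 0.69 and Dock8 0.72, while Tek was at 0.50, Podxl, Mmrn2 and Slc40a1 at 0.58, and Pcdh8 and S100b at -0.04 and -0.11. Of those genes, Slco2b1 and Dock8 were then still among the 8 most alike, and Marveld1 (0.73) and Gm26558 (0.73) came first. Of the 8 named first, Slco2b1 (-0.85 ± 0.09), Dock8 (-0.90 ± 0.15), the angiopoietin receptor gene Tek (-1.86 ± 0.09) and the iron exporter gene Slc40a1 (-1.74 ± 0.14) fell under LPS in control mice.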

How the data were processed

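Cortical total RNA of 24 mice (4 groups of 6) was extracted with TRIzol and an RNeasy kit with DNase, per the labels' protocols. The authors deposited raw read counts per gene, made with MAP-RSeq 2.1.1 per the series design text, with STAR 2.5.2b and mm10 named in the submitters' processing notes. The sources used here do not give the counter, annotation release or strand setting. Separate libraries were taken as separate mice, and replicate numbers follow accession order.

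Genes were filtered with filterByExpr by group and scaled with TMM, and edgeR 4.0.16 (R 4.3.3) fitted all libraries with 1 coefficient per group. Each of 5 contrasts was tested with the two-sided quasi-likelihood F test and adjusted by Benjamini-Hochberg over 21891 genes, at a threshold of 0.05. Every adjusted p-value printed comes from this edgeR test or a stated variant of it, save a range over all alternatives, which includes DESeq2. The standard error is the log2 fold change over the square root of F, and 95% intervals use 20 residual degrees of freedom. Log2 CPM used a prior count of 2. The method was tested on simulated data. Members and gene lists were chosen with earlier results of these data known. Named genes were the 10 members, every ligand, TGF-beta, transcription factor and purinergic gene listed, up to 3 highest and 3 lowest of each other list (Ttr and the lists given only as sums aside), genes overlapping a member, and the 8 with the highest likeness; single values of some list genes are not reported here. Likeness is a Pearson correlation with the members' mean z-scored log2 CPM after removal of group means. Exon overlaps come from GENCODE M21 and gene-start windows from RefSeq (GRCm38.p6). Alternatives were DESeq2 1.42.0, other scalings and filters, a fit of the compared groups alone, age, Ttr and surrogate variables (sva 3.50.0) as covariates, and leaving out each library.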

Additional observations from a re-analysis of the deposited data

Results flagged for a closer look

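Each of the 10 genes was checked in each of the 4 groups, 40 checks in all, for a library far from the other 5 by Dixon's criterion, which chance meets in about 1 of 20 groups. A set of 3 values stood out. Cx3cr1 was lowest in control LPS replicate 5, at 3.02 log2 CPM where the next library held 3.29. Gpr34 was highest in LPS replicate 4 labelled Abca7, at 2.17 log2 CPM where the next held 1.24. Siglech was highest in that same library, at 3.18 log2 CPM where the next held 2.999. No cause was tested for these values.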

How the results depend on the processing

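No called value changed sign, and each count of members called stayed within 1.5 times of its value. Calls were lost for Sall1 in control mice (adjusted p = 0.0527 without TMM factors and 0.0753 with the compared groups alone) and for Fcrls in labelled mice (0.0922 without TMM factors, 0.0603 with no filter, 0.107 with the compared groups alone, 0.0756 with age, 0.0894 with surrogate variables). Values not called under either setting were not read for direction. The count of genes called for genotype without LPS, 7, became 33 with DESeq2, 2 without TMM factors, 3 with the compared groups alone, 49 with age, 3 with Ttr, 131 with surrogate variables, and 2 to 38 without single libraries. For genotype under LPS, 0 became 41 with DESeq2, 2 with age, 3 with surrogate variables and 0 to 1 without single libraries. The interaction count, 0, became 0 to 7 without single libraries, and the LPS count in control mice, 3790, became 1626 with Ttr. The cause of these shifts was not tested. Leaving out replicate 4 of the labelled LPS group in the correlations was chosen after seeing the data. No paired analysis was possible because replicate numbers follow accession order and the labels pair no mice. The lowest count of a member in a library was 84, for Gpr34.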
